A study of Mus musculus with 28 samples.

Results

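The core circadian clock genes of mouse calf muscle were followed across loss of the kinase LKB1 and a short bout of contraction. The 10 genes were Arntl, Clock, Per1, Per2, Per3, Cry1, Cry2, Nr1d1, Nr1d2 and Dbp, and their probes were found by the gene symbol in the array's annotation, which gave 17 of the 25697 probes. A probe was kept when its normalized intensity was over 24 on at least 7 of the 28 arrays. This left 13 probes of 9 clock genes among 11723 kept probes of all genes.

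Female mice of the FVB strain, aged 4 months, gave the tissue (gastrocnemius, plantaris and soleus together), in 4 groups of 7 samples. The first group was LKB1 knockout muscle taken immediately after 15 min of contraction, evoked in place through the sciatic nerve, and the second was wild-type muscle contracted in the same way. The third was LKB1 knockout muscle at rest and the fourth wild-type muscle at rest. The knockout was specific to skeletal muscle. The promoter that drove the deletion, the hour of sampling and the light cycle are not given in the sources used here. Nothing in the labels says that the samples came from separate animals, so each p-value reflects spread among samples that may be partly technical.

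The clock is a transcriptional feedback loop. BMAL1, the product of Arntl, pairs with CLOCK on E-box elements and activates the Per and Cry genes, Nr1d1, Nr1d2 and Dbp. PER and CRY proteins block that pair, and REV-ERBα and REV-ERBβ, the products of Nr1d1 and Nr1d2, repress Arntl through ROR elements. DBP is an output activator that binds D-boxes. In mouse cells AMPK, the best known substrate of LKB1, phosphorylates CRY1 and marks it for degradation, and skeletal muscle has a rhythmic clock of its own.

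Letters that match elements of this loop were read in some of the genes' promoters. The stretches below lie upstream of the annotated start and are from RefSeq, assembly GRCm38.p6, with the matched element in capitals. They show letter matches to an activator input (Per1, Nr1d1), to a loose form of a repressor input (Arntl) and to an output element (Per3). The last stretch is from the promoter of Ciart, a clock repressor that returns in the results. The Per1 stretch is chr11:69098759-69098828 on the plus strand, with 1 E-box.
Per1: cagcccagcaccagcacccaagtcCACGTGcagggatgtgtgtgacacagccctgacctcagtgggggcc
The Nr1d1 stretch is chr11:98775378-98775437 on the minus strand, with 1 E-prime box in its reverse-complement form.
Nr1d1: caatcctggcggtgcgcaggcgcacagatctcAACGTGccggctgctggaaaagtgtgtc
The Arntl stretch is chr7:113207255-113207304 on the plus strand, with 2 matches to the loose ROR core TNGGTCA, in which N is any base.
Arntl: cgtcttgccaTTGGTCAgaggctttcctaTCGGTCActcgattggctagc
The Per3 stretch is chr4:151044806-151044885 on the minus strand, with 2 D-boxes.
Per3: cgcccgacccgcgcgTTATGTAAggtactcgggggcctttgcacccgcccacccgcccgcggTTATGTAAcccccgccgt
The Ciart stretch is chr3:95882254-95882353 on the minus strand, with 3 E-boxes.
Ciart: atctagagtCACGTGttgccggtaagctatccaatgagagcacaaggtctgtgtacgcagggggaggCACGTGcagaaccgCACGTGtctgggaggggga

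Motifs were searched on both strands of windows of 250 bases before to 50 bases after each start, of which 9 clock genes had 13. The E-box CACGTG was in the windows of Per1 and Cry1 and in 7.15% of all 32851 windows. The E-prime box CACGTT was in those of Cry1, Cry2 and Nr1d1 and in 4.68% of all. The D-box TTANGTAA was in the Per3 window and in 2.32% of all. The ROR element core was searched in the loose form TNGGTCA. This form was in the windows of Arntl, Per3 and Cry2 and in 11.0% of all. The Arntl matches shown are TTGGTCA and TCGGTCA, and those of Per3 and Cry2 are TTGGTCA in reverse complement. A further Arntl match, TAGGTCA, lay after the annotated start in another window and is not shown. The cAMP response element TGACGTCA was in none of the clock windows and in 1.79% of all. None of these motifs overlaps another in the stretches shown. A match describes the letters in a window and is not evidence of binding.

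As a check of the labels, Stk11, which encodes LKB1, had a lowest, median and highest intensity of 335, 402 and 554 in contracted knockout muscle, against 1018, 1375 and 1406 in contracted wild-type muscle. At rest the values were 301, 452 and 563 in knockout muscle, against 1019, 1152 and 1514 in wild-type muscle. The groups did not overlap, and the knockout level was 35.9% of wild type after contraction and 38.9% at rest (limma, adjusted p = 2.20e-08 and 1.42e-07). Muscle fibre markers were at a like level in all groups, with means over 7 genes between 13.5 and 14.1 on the log2 scale. Slow-fibre markers were low on replicate 4 of contracted knockout, contracted wild-type and resting knockout muscle, and lymphocyte markers were high on 6 arrays spread over the 4 groups. In whole muscle, fewer cells of a type and less RNA per cell cannot be told apart.

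Cry1 had 1 probe, which was over the limit on 0 of 28 arrays, so no level can be given for it. The same held for 1 further probe each of Clock, Per2 and Nr1d2. Among the kept probes, Arntl and Per3 lay close to the limit. Arntl was over it on 5 of 7 arrays of contracted knockout, 3 of contracted wild-type, 7 of resting knockout and 3 of resting wild-type muscle. Per3 was over it on 5 arrays of contracted knockout, 3 of contracted wild-type, 6 of resting knockout and 4 of resting wild-type muscle. The dimmer Clock probe (ILMN_2600964) was over it on 19 of 28 arrays, and its genotype differences were 0.01 ± 0.11 after contraction and 0.12 ± 0.11 at rest (log2, SE). The other 10 kept probes were over the limit on all 28 arrays.

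**Figure D1:**
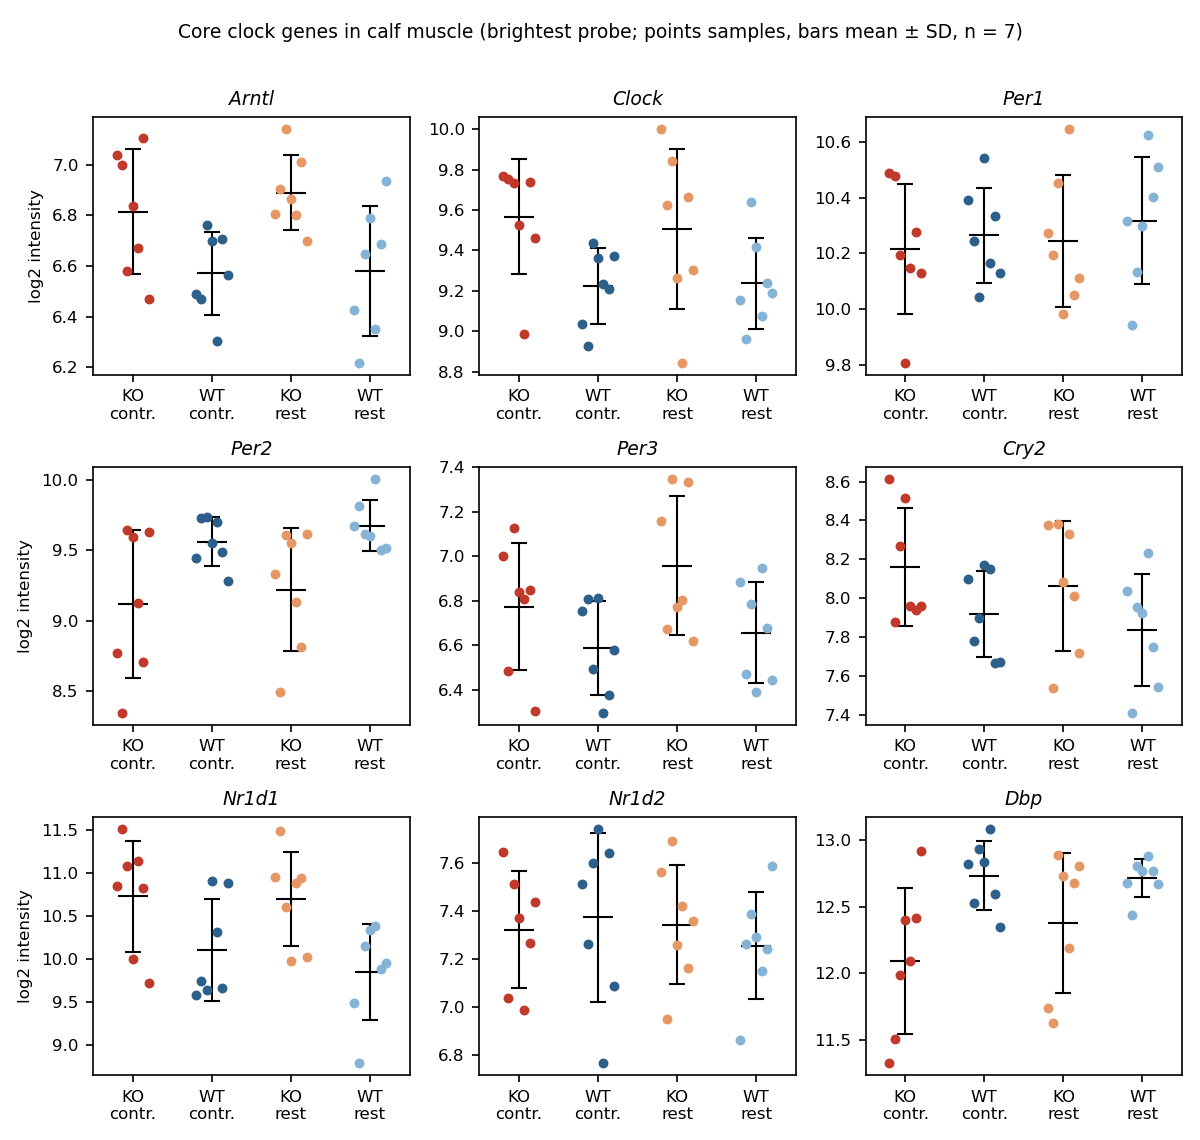
Log2 intensity (normexp-corrected) of the brightest kept probe of 9 clock genes, with 1 panel per gene and 1 column per group; points are samples and bars the mean ± SD (n = 7). KO is LKB1 knockout, WT wild type and contr. contracted; the groups of every gene overlap, and the knockout points of Nr1d1 sit mostly above, and those of Dbp and Per2 mostly below, the wild-type points.

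In resting muscle, loss of LKB1 was accompanied by no called difference in any clock probe. With limma and Benjamini-Hochberg adjustment over all kept probes, 0 of 13 clock probes passed an adjusted p of 0.05, where 3.43% of all probes passed. At an unadjusted p of 0.05, 5 of the 13 passed, where 21.1% of all probes did. The 5 were both probes of Nr1d1 and the probes of Arntl and Per3, which were higher in knockout muscle, and 1 probe of Per2, which was lower. The median size of the difference was 0.27 over the clock probes and 0.15 over all probes, on the log2 scale.

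Of the loop's activators, Arntl had intensities of 27.4, 40.1 and 64.7 (lowest, median, highest) in resting knockout muscle, against -2.26, 23.6 and 45.8 in resting wild-type muscle. All 7 knockout samples were above the wild-type median, but the groups overlapped. The difference was 0.31 ± 0.11 (log2, SE, n = 7 each) with an adjusted p of 0.120, and 0.55 with the values floored at 24 in place of normexp. Clock, which encodes the partner of BMAL1, had 383, 714 and 948 in knockout muscle at rest, against 422, 507 and 720 in wild-type muscle. Its difference was 0.27 ± 0.15 (log2, SE) with an adjusted p of 0.302, and 6 of 7 knockout samples were above the wild-type median.

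Nr1d1 had the widest separation at rest. Its brighter probe (ILMN_1229091) had 939, 1826 and 2806 in resting knockout muscle, against 367, 921 and 1261 in resting wild-type muscle. The lowest 2 knockout samples lay inside the wild-type range and all 7 were above the wild-type median. The knockout level was 1.79 times that of wild type, a log2 difference of 0.84 ± 0.29 (SE) with an unadjusted 95% interval of 0.24 to 1.45, and the adjusted p was 0.103. The second probe gave 0.74 ± 0.26, with an adjusted p of 0.111. Without replicate 7 of resting knockout muscle the brighter probe passed, with a limma adjusted p of 0.0498. That fit called 908 of all probes, against 402 with all arrays. Nr1d2, which encodes the related repressor REV-ERBβ, differed by 0.09 ± 0.14 (log2, SE), with an interval of -0.20 to 0.38.

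The repressor genes of the loop did not share a direction at rest. Per2 (ILMN_2987862) had 284, 570 and 708 in resting knockout muscle, against 648, 710 and 952 in resting wild-type muscle. None of the 7 knockout samples was above the wild-type median, and the groups overlapped between 648 and 708. The difference was -0.45 ± 0.19 (log2, SE) with an adjusted p of 0.160, and a second Per2 probe gave -0.18 ± 0.15. Per3 gave 0.30 ± 0.14, with an adjusted p of 0.209 (0.55 with the floor at 24), and Cry2 gave 0.23 ± 0.15, with an adjusted p of 0.392 (0.42 without the arrays high in lymphocyte markers). The 2 Per1 probes gave -0.07 ± 0.12 and 0.00 ± 0.12, with intervals between -0.31 and 0.24.

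Dbp, the output gene, had 3082, 6467 and 7503 in resting knockout muscle, against 5480, 6894 and 7486 in resting wild-type muscle. Replicates 1, 2 and 5 of the knockout, at 3338, 3082 and 4607, were below every wild-type sample and the other 4 were inside or just above the wild-type range. The difference was -0.34 ± 0.21 (log2, SE) with an adjusted p of 0.355. Without replicate 2 of resting knockout muscle it was -0.21, as it was without the arrays high in lymphocyte markers.

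After contraction, 0 of 13 clock probes again passed between knockout and wild-type muscle, where 7.86% of all probes did. With same-numbered samples as a random block, an alternative chosen after seeing the data, 1 clock probe (Dbp) passed. The share of all probes that passed with this block is not given here, so the 1 cannot be set against it. That block set 1 correlation, 0.40, for both genotypes, although wild-type samples were not taken as pairs. At an unadjusted p of 0.05, 5 clock probes passed, where 25.5% of all probes did: Arntl and 1 probe each of Clock and Nr1d1 were higher in knockout muscle, and Dbp and 1 probe of Per2 were lower. The median size was 0.24 over the clock probes and 0.16 over all probes, on the log2 scale. In simulated data for this comparison, 49 of 100 probes changed by 0.5 and 94 of 100 changed by 1 on the log2 scale were recovered. The simulation changed 200 probes, where the data called 921. Its shares do not give the recovery of single clock probes such as Dbp and Nr1d1. Their SEs of 0.21 and 0.29 (brighter probe) exceed the clock probes' median of 0.15.

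Dbp (ILMN_2616226) came nearest to the threshold. It had 2486, 4295 and 7660 in contracted knockout muscle, against 5128, 7173 and 8608 in contracted wild-type muscle. Replicates 1, 2, 3 and 5 of the knockout, at 2486, 2835, 3986 and 4295, were below every wild-type sample. Replicate 7, at 7660, was the only one above the wild-type median, and the groups overlapped. The knockout level was 64.1% of wild type, a log2 difference of -0.64 ± 0.21 (SE) with an unadjusted 95% interval of -1.07 to -0.22, and the adjusted p was 0.0535. With same-numbered samples as a random block it was 0.0298. Without replicate 7 of contracted knockout muscle the limma adjusted p was 0.00850, in a fit that called 2202 of all probes, against 921 with all arrays. The call was also gained without replicates 1, 2, 3 or 7 of resting knockout or replicate 7 of contracted wild-type muscle.

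The differences of Nr1d1, Arntl, Clock, Per2, Per3 and Cry2 after contraction had the same sign as at rest. Contracted and resting knockout samples of the same number deviated together, so this is not independent of the resting values. Nr1d1 had 768, 1781 and 2852 in contracted knockout muscle, against 695, 787 and 1854 in contracted wild-type muscle. Its knockout range covered the wild-type range almost whole, and 6 of 7 knockout samples were above the wild-type median. The difference was 0.62 ± 0.29 (log2, SE) with an adjusted p of 0.180, and 0.42 ± 0.26 by the second probe (0.66 without the arrays low in slow-fibre markers). Clock had 431, 776 and 794 in contracted knockout muscle, against 410, 525 and 618 in contracted wild-type muscle. All knockout samples but replicate 5 lay above the whole wild-type range. The Clock difference was 0.34 ± 0.15 (log2, SE) with an adjusted p of 0.146.

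Per2 had 249, 483 and 724 in contracted knockout muscle, against 545, 674 and 775 in contracted wild-type muscle. Replicates 1, 2, 5 and 6 of the knockout were below the wild-type range and replicates 3, 4 and 7 inside it. The difference was -0.45 ± 0.19 (log2, SE) with a limma adjusted p of 0.129. It passed, at 0.0473, without replicate 7 of contracted knockout muscle, where 2202 of all probes passed, against 921 in the main fit. A second Per2 probe gave -0.18 ± 0.15, with a limma adjusted p of 0.491, and did not pass with any 1 array left out. Arntl had 12.2, 37.9 and 61.1 in contracted knockout muscle, against 2.35, 18.2 and 31.8 in contracted wild-type muscle, a difference of 0.24 ± 0.11 with an adjusted p of 0.173 (0.51 with the floor at 24). The other differences were 0.24 ± 0.15 for Cry2, 0.19 ± 0.14 for Per3, -0.05 ± 0.14 for Nr1d2, and -0.05 and -0.03 for the 2 Per1 probes, each of these with an SE of 0.12.

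Markers of other cell types are given beside these values. Of the 5 macrophage markers 3 were kept (Mrc1, Lyz2 and Cd163), and their mean ranged over 7.98 to 9.83 in contracted knockout muscle, against 7.51 to 8.80 in contracted wild-type muscle, on the log2 scale. At rest it ranged over 8.04 to 9.71 in knockout muscle, against 7.64 to 8.75 in wild-type muscle. All 5 fibroblast markers were kept, with a mean of 9.39 to 10.40 in contracted knockout muscle, against 8.86 to 9.83 in contracted wild-type muscle, and of 9.28 to 10.69 in resting knockout muscle, against 8.96 to 9.80 in resting wild-type muscle. At rest 0 markers of either list passed with limma. After contraction Mrc1 and Lum passed, the ranges of both lists overlapped between the genotypes, and Cd68 and Csf1r had no annotated probe. These markers' part in the clock genes' values was not tested.

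**Figure D2:**
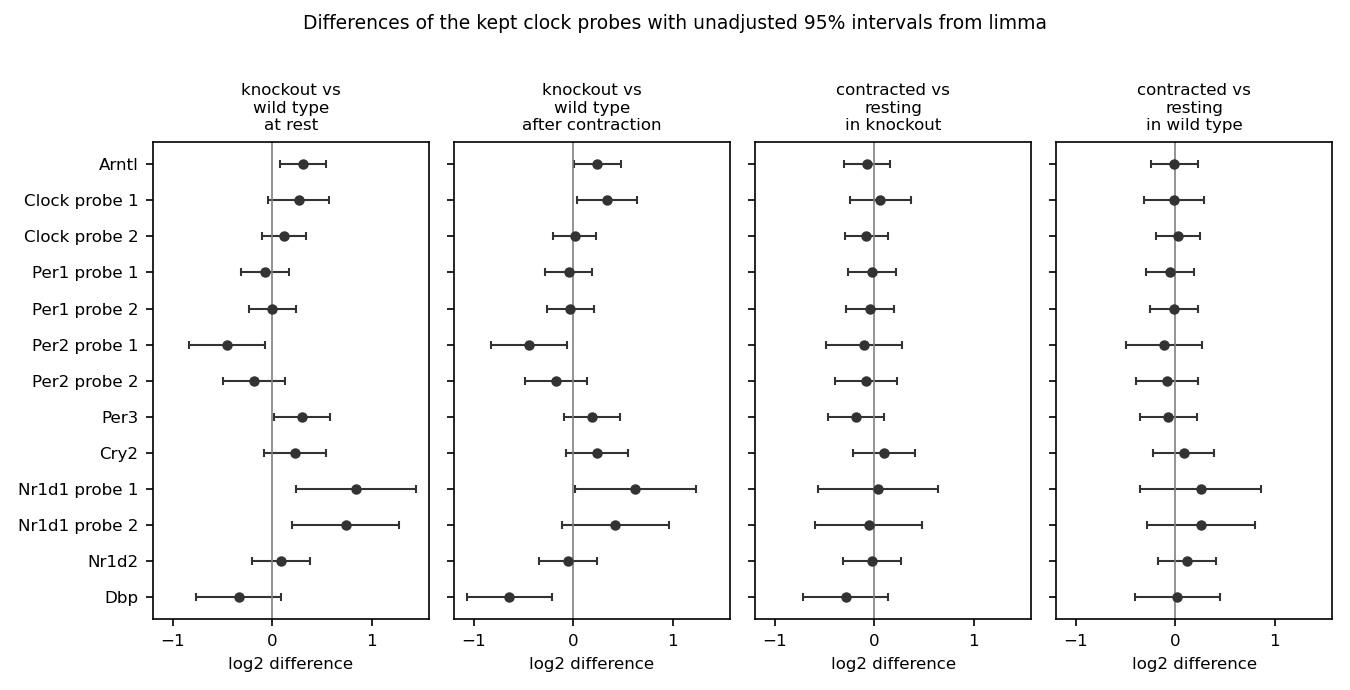
Log2 differences (x axis) of the 13 kept clock probes (rows) in 4 comparisons, first-named group minus second; points are limma estimates and bars unadjusted 95% intervals. The genotype differences of Nr1d1 reach 0.84 and that of Dbp -0.64, whereas the contraction differences lie between -0.29 and 0.26.

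Contraction itself was examined within each genotype. The whole array gave little: 1 of 11723 probes passed between contracted and resting knockout muscle, and 0 between contracted and resting wild-type muscle, where 139 had an unadjusted p under 0.05. No clock probe passed in either, and without a block 0 of 13 reached an unadjusted p of 0.05, against backgrounds of 0.00853% and 1.8% in knockout and 0% and 1.19% in wild-type muscle at the adjusted and unadjusted thresholds. In knockout muscle the replicate number was taken to pair contracted with resting samples, although the labels do not state it. With the number as a block, 55 probes of all genes passed in knockout muscle and still 0 clock probes.

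Per1, whose transcription can respond quickly to cAMP and calcium signals in other tissues of the mouse, showed no difference beyond its spread. Its brighter probe had 820, 1096 and 1361 in contracted knockout muscle, against 935, 1096 and 1526 in resting knockout muscle. In wild-type muscle it had 980, 1136 and 1414 after contraction, against 907, 1197 and 1501 at rest. The contraction difference was -0.03 in knockout and -0.05 in wild-type muscle (SE 0.12 each), and the intervals of -0.27 to 0.21 and -0.29 to 0.19 reach no further than 0.29 in size on the log2 scale.

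Dbp had the largest contraction difference among the clock probes, in knockout muscle. It was -0.29 ± 0.21 (log2, SE), to 82.0% of the resting level. With the replicate block it was -0.29 ± 0.10, with an unadjusted p of 0.00976 and an adjusted p of 0.516 (limma), and the contracted sample was higher in 1 of 7 pairs. In wild-type muscle the Dbp difference was 0.02 ± 0.21. The difference between these responses was -0.31 ± 0.29 without the block and -0.31 ± 0.14 with it (limma, unadjusted p = 0.0427, adjusted p = 1.00), and did not pass. The block in these Dbp fits also joined wild-type samples by number, although those were not taken as pairs. Its smaller SEs therefore rest in part on a pairing that was not established. Without the block, the 2 Nr1d1 probes gave 0.03 ± 0.29 and -0.06 ± 0.26 in knockout muscle, against 0.25 ± 0.29 and 0.26 ± 0.26 in wild-type muscle. For the difference of the responses, 0 of 13 clock probes passed, against 0% of all probes, and 0 had an unadjusted p under 0.05 without the block, against 0.614%.

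The replicate number was also followed for each clock gene. For each of 9 genes and both genotypes the contracted sample was correlated with the resting sample of its number (18 relations, exact permutation over 5040 orders, two-sided). In knockout muscle Clock gave r = 0.92 and rho = 0.82 (adjusted exact p = 0.0286), Per2 r = 0.92 and rho = 0.93 (0.0286) and Nr1d1 r = 0.92 and rho = 0.68 (0.0476). Dbp, with r = 0.82 and rho = 0.57, and Per3, with r = 0.81 and rho = 0.93, had an adjusted exact p of 0.0907. The other 4 knockout relations did not pass either, with r = 0.17 for Arntl, 0.22 for Per1, 0.59 for Cry2 and 0.64 for Nr1d2. In wild-type muscle 0 of 9 passed, with r between -0.58 for Per3 and 0.79 for Clock and Cry2, and 2 of them had an unadjusted exact p under 0.05. These calls are by r. By rho no relation of either genotype passed, with an adjusted exact p of 0.0571 or more.

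Without the 2 pairs farthest from the median of the resting value, r was 0.91 for Clock, 0.78 for Per2 and 0.64 for Nr1d1. The smallest exact p that 5 pairs allow is 0.00833, too large for a test of single relations after adjustment over 18. Over all kept probes, the median r between same-numbered samples was 0.62 in knockout and 0.15 in wild-type muscle, and the 90th percentile of the knockout probes was 0.90. The share of all probes that would pass was not computed, so the relations of Clock, Per2 and Nr1d1 cannot be called particular to clock genes. Whether the relation differs between the genotypes was not tested.

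**Figure D3:**
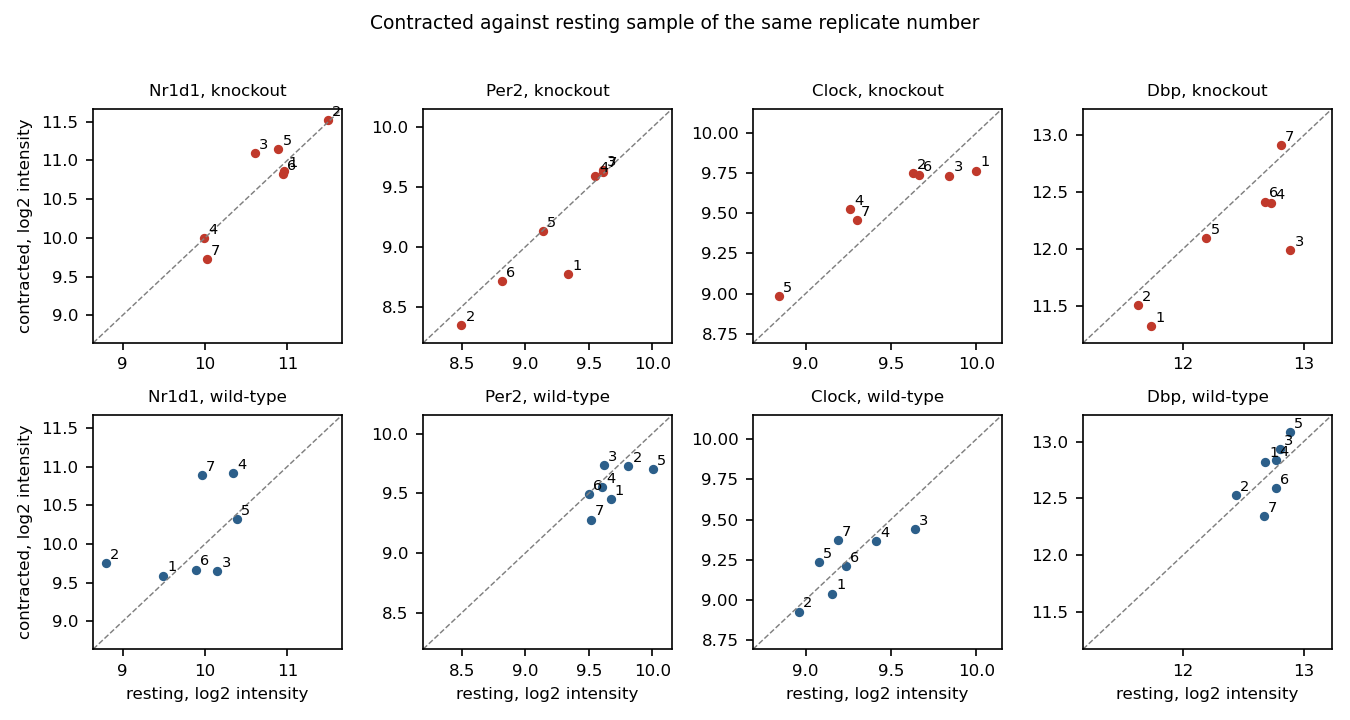
Log2 intensity after contraction (y axis) against that at rest (x axis) for samples of the same replicate number, for Nr1d1, Per2, Clock and Dbp; numbers beside the points are replicate numbers and the dashed line is equality. In knockout muscle (upper panels) r is 0.92 for Nr1d1, Per2 and Clock, and 6 of 7 Dbp points lie below the line; the wild-type points (lower panels) follow the line less closely for Nr1d1, with r = 0.50.

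The spread of clock levels within groups is given as a description, since its difference between the genotypes was not tested. The SD of the log2 intensity of Dbp was 0.55 in contracted knockout and 0.26 in contracted wild-type muscle, and 0.53 in resting knockout and 0.14 in resting wild-type muscle. For the brighter Per2 probe it was 0.52 in contracted knockout and 0.17 in contracted wild-type muscle, and 0.43 in resting knockout and 0.18 in resting wild-type muscle. The second Per2 probe did not share this. Its SD was 0.31 in contracted knockout and 0.26 in contracted wild-type muscle, and 0.28 in resting knockout and 0.32 in resting wild-type muscle. By the brightest probe of each gene, the SD was larger in knockout than in wild-type muscle for 8 of 9 clock genes after contraction and 7 of 9 at rest, against 61.7% and 58.4% of all kept probes. Nr1d1, in contrast, had SDs between 0.54 and 0.64 in all 4 groups.

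Whether clock genes varied with Arntl from sample to sample was examined next. With the group means removed, each of 8 clock genes was correlated with Arntl over the 28 samples (permutation within groups, 100000 draws, two-sided, adjusted over the 8). Clock gave r = 0.47 and rho = 0.57 (adjusted permutation p = 0.0425 for r) and Per2 gave r = -0.51 and rho = -0.53 (0.0425). Without the 2 samples farthest from the median of Arntl r was 0.49 and -0.52, and neither passed. With 1 array left out at a time, both passed for 10 arrays, 1 passed for 3 and neither for 15. The other 6 did not pass, with r between -0.13 for Dbp and 0.37 for Nr1d2. Among 8380 genes outside the clock, r with Arntl reached 0.77 (Cep57) and -0.76 (Gng7). The share of all genes that would pass was not computed, so the relations of Clock and Per2 cannot be called particular to clock genes.

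The pair of relations held in sign within groups but did not pass there. Within the groups of 7, r of Clock with Arntl was 0.50 in contracted knockout, 0.54 in contracted wild-type, 0.47 in resting knockout and 0.57 in resting wild-type muscle. That of Per2 was -0.81 in contracted knockout, -0.13 in contracted wild-type, -0.13 in resting knockout and -0.80 in resting wild-type muscle. No adjusted exact p within a group was under 0.05. Same-numbered samples are not independent in knockout muscle. Over 14 means of same-numbered samples r was 0.64 for Clock and -0.57 for Per2, each with an adjusted permutation p of 0.0614. The Arntl probe behind these relations is dim.

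Among the other pairs of clock genes, given as a description over the same 28 samples from 28 shared arrays, Per2 and Dbp had r = 0.60, Per3 and Cry2 0.57, Per1 and Nr1d1 0.48, Nr1d1 and Dbp -0.46 and Per2 and Nr1d1 -0.56. These pooled values did not hold in every group of 7. The r of Nr1d1 with Dbp was -0.76 in contracted knockout, -0.17 in contracted wild-type, -0.76 in resting knockout and 0.93 in resting wild-type muscle. That of Nr1d1 with Per2 was -0.67 in contracted knockout, -0.40 in contracted wild-type, -0.85 in resting knockout and -0.07 in resting wild-type muscle.

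A wider list of 27 clock factors and regulators of clock proteins had 25 kept probes of 16 genes. At rest 0 of the 25 were higher and 1 was lower in knockout muscle, where 3.43% of all probes were called, with a median difference over the 16 genes of -0.14. After contraction 0 were higher and 4 were lower, where 7.86% of all probes were called, with a median of -0.18 on the log2 scale. At an unadjusted p of 0.05, 8 passed at rest, where 21.1% of all probes did, and 11 after contraction, where 25.5% did. The called probes belonged to Csnk1e, which encodes casein kinase 1 epsilon, a kinase that phosphorylates PER proteins, and to Ciart, which encodes a repressor of the BMAL1-CLOCK pair and carries the 3 E-boxes shown above. The contraction comparisons and the difference of the responses called 0 of the 25 with limma, where 2 (knockout), 2 (wild type) and 1 (difference) had an unadjusted p under 0.05, against 1.8%, 1.19% and 0.614% of all probes.

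Csnk1e (ILMN_2689333) had 882, 1158 and 1683 in contracted knockout muscle, against 1651, 2080 and 2452 in contracted wild-type muscle. At rest it had 954, 1243 and 1917 in knockout muscle, against 1571, 1854 and 2285 in wild-type muscle. After contraction 1 knockout sample reached into the wild-type range, and at rest likewise 1 did. In knockout relative to wild-type muscle, Csnk1e fell by 0.80 on the log2 scale in the contracted groups (SE 0.14, limma adjusted p = 0.00153) and by 0.57 in the resting groups (SE 0.14, adjusted p = 0.0225). A second probe fell by 0.41 in the contracted groups (SE 0.09, adjusted p = 0.00740) and gave -0.24 ± 0.09 at rest, with an adjusted p of 0.138. The call at rest was lost without replicate 1 of resting knockout (adjusted p up to 0.0734) or replicate 2 of resting wild-type muscle.

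Ciart was measured by 2 probes. The dimmer one (ILMN_3029489) had 164, 272 and 575 in contracted knockout muscle, against 404, 603 and 1384 in contracted wild-type muscle. All knockout samples but the highest lay below the wild-type range. It fell by 0.99 (log2, SE 0.24, limma adjusted p = 0.0128), to 50.2% of wild type. The brighter one (ILMN_3102736) had 247, 306 and 531 in contracted knockout muscle, against 502, 520 and 1437 in contracted wild-type muscle, and fell by 0.87 (SE 0.27, adjusted p = 0.0396). This second call was lost without any 1 of 7 arrays (replicates 1, 3, 4 or 6 of contracted knockout or 1, 4 or 5 of contracted wild-type muscle), where the adjusted p reached 0.0947. With no filter on dim probes this call was lost too (limma adjusted p = 0.0778). Without the 3 arrays low in slow-fibre markers the difference of the brighter probe was -0.69 with an adjusted p of 0.117. The dimmer probe kept its call there (-0.82, adjusted p = 0.0419). At rest the probes gave -0.59 ± 0.24 and -0.40 ± 0.27, with adjusted p of 0.160 and 0.393.

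**Figure D4:**
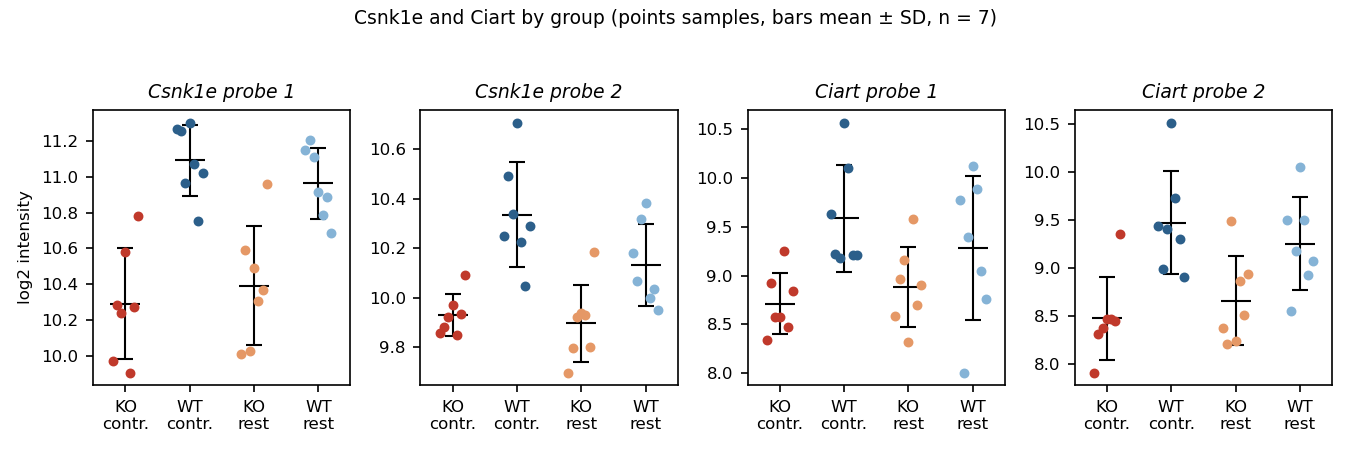
Log2 intensity (normexp-corrected) of the 2 probes each of Csnk1e and Ciart in the 4 groups; points are samples and bars the mean ± SD (n = 7). KO is LKB1 knockout, WT wild type and contr. contracted; after contraction the knockout samples lie mostly below the wild-type range for both genes.

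Outputs of the clock and genes of stimuli that can reset it were read from 3 further lists, against the same shares over all probes (7.86% called after contraction and 3.43% at rest between the genotypes, and at most 0.00853% for contraction). Of 10 genes reported as outputs of the muscle clock, 6 had 8 kept probes and 0 were called in any comparison with limma, where 0 to 2 had an unadjusted p under 0.05, with a median genotype difference of 0.08 after contraction and -0.09 at rest. Of 12 glucocorticoid-responsive genes, 8 had 9 kept probes, and 1 was called: Mt2, a metallothionein that binds zinc, rose by 0.95 in contracted knockout over contracted wild-type muscle (log2, SE 0.26, limma adjusted p = 0.0207). Between contracted and resting knockout muscle 0 of the 9 were called and 4 had an unadjusted p under 0.05, against 1.8% of all probes. The Mt2 call was lost with only the compared groups in the fit (adjusted p = 0.0589), without the arrays low in slow-fibre markers (0.0795), and without replicate 1 (0.0599) or 4 (0.0533) of contracted knockout muscle. Of 12 immediate-early targets of CREB and SRF, 10 had 12 kept probes. After contraction 4 of these were higher in knockout muscle and 1 was lower, and 0 were called with limma in the other comparisons, where 2 to 5 of the 12 had an unadjusted p under 0.05, against 21.1% of all probes for genotype at rest, 1.8% and 1.19% for contraction in knockout and wild-type muscle and 0.614% for the difference of the responses.

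Fos, a component of the AP-1 transcription factor, had 74.7, 646 and 2324 in contracted knockout muscle, against 12.2, 58.8 and 277 in contracted wild-type muscle. It rose by 2.16 (log2, SE 0.46, limma adjusted p = 0.00510) in knockout over wild-type muscle, with overlapping groups. Fosb, its relative, had -7.83, 81.2 and 139 in contracted knockout muscle, against -6.58, 4.21 and 69.4 in contracted wild-type muscle. It was over the limit of 24 on 6 of 7 contracted knockout and 1 of 7 contracted wild-type arrays, so that the fitted rise of 0.68 (adjusted p = 0.0166) is set mostly against background. The Fosb call was lost with only the compared groups in the fit (adjusted p = 0.0886), without the arrays low in slow-fibre markers (0.0506) and without replicate 1 of contracted knockout muscle (0.0519). Nr4a3, an orphan nuclear receptor, had 2.84, 13.4 and 30.5 in contracted knockout muscle, against 38.6, 78.0 and 160 in contracted wild-type muscle. The groups did not overlap, and it was over the limit on 1 of 7 contracted knockout and 7 of 7 contracted wild-type arrays. Nr4a3 fell in knockout muscle (adjusted p = 0.00207), and the fitted size of 0.79 depends on how background is treated, since it was -1.65 with the floor at 24.

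Crem, a modulator of cAMP-responsive transcription, had 3 kept probes, of which 2 passed with limma, with differences of 0.37 and 0.54 (adjusted p = 0.0397 and 0.0269). Both are dim: ILMN_2964986 was over the limit on 4 and ILMN_2602899 on 1 of 7 contracted wild-type arrays. Their sizes depend on how background is treated, and were 0.85 and 1.06 with the floor at 24. The brightest probe (ILMN_1242622), over the limit on every array, did not pass, with medians of 117 in contracted knockout and 48.0 in contracted wild-type muscle. The Crem probe ILMN_2964986 lost its call with no filter (0.0611), with only the compared groups (0.0884), without the arrays low in slow-fibre markers (0.134) and without any 1 of 9 arrays, replicates 1, 3, 4 and 6 of contracted knockout and 1 to 5 of contracted wild-type muscle (up to 0.103). The Crem probe ILMN_2602899 lost it without the arrays low in slow-fibre markers (0.0944) and without any 1 of 5 arrays, replicates 1, 3, 4 and 6 of contracted knockout and 3 of contracted wild-type muscle (up to 0.0692). Per1, which belongs to the clock and has been described as a CREB target in the mouse, gave -0.05 ± 0.12 in that comparison.

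The genes whose levels followed those of Arntl and Dbp most closely were taken from 8380 genes, the clock genes left out, by Pearson's r of the deviations from the group means over 28 samples, as a description. For Arntl they were Cep57 (0.77), Ubtd2 (0.71), Zfp638 (0.68), Zfp451 (0.66) and 2610044O15Rik8 (0.65), and the most opposite were Gng7 (-0.76), Mtarc2 (-0.71), Gkn3 (-0.68), Chaf1a (-0.66) and Tnpo2 (-0.66). For Dbp they were Calm3 (0.84), Khdrbs2 (0.83), Ndel1 (0.83), Ttyh2 (0.81) and Gm382 (0.81), and the most opposite were Ip6k2 (-0.84), Immt (-0.84), Lgals8 (-0.83), Zfand6 (-0.83) and Tax1bp1 (-0.82).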

How the data were processed

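RNA of 28 mouse calf muscle samples was amplified, labelled with biotin and hybridised to Illumina BeadChips, per the labels' protocols. The deposited values are probe intensities on a linear scale, from -36.1 to 50215 with 27.2% below 0 and column medians of 12.6 to 13.1, so a background had been subtracted and the arrays brought to like levels by the authors. The submitters' processing notes name R 3.1.2, lumi 3.0 and limma 3.1 without their roles. The authors also deposited non-normalized intensities, each with a p-value of detection, per the file headers. Of its 28 intensity columns 21 were not used, because their numbers could not be matched to the labels. On the other 7 arrays, all of resting wild-type muscle, a detection p from 0.04 to 0.06 went with a median normalized intensity of 23.8, which is the basis of the limit of 24. Quantile normalization was not repeated.

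Probes were named from the platform's annotation (23978 of 25697 had a symbol). The intensities were corrected with normexp (offset 50), which shrinks differences of dim probes, taken to log2 and tested with limma 3.58.1 in R 4.3.3 (lmFit and eBayes, 1 mean per group, 28 arrays), with Benjamini-Hochberg adjustment over 11723 kept probes and calls at an adjusted p under 0.05. Correlations of the clock genes and their permutations used numpy 2.4.6, with ranks from scipy 1.17.1, and correlations over all genes or probes used R. The test was tried on simulated data with 200 changed probes. All probes of the clock genes are described, with Stk11, up to 4 called genes with the smallest p of each list, and the 5 genes most and 5 least like Arntl and Dbp. The clock genes and the lists were chosen with earlier results of these data known.

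The replicate numbers in the titles were checked as pairs by correlating deviations from the group means over all kept probes. Contracted and resting knockout samples of the same number had r between 0.37 and 0.85 in all 7 pairs, with a mean of 0.65, against -0.10 for unlike numbers. The best match was the own number for 4 of 7, whereas contracted replicates 3, 4 and 5 matched resting replicates 1, 6 and 2 best. The numbers were taken to pair these samples, which the labels do not state. Wild-type pairs had r between -0.06 and 0.52, with a mean of 0.26, against -0.04 for unlike numbers, and the best match was the own number for 1 of 7. Across genotypes the mean for equal numbers was 0.17 at rest, against -0.03 for unlike numbers, and 0.005 after contraction, against 0.001. Equal numbers thus had the higher mean r beyond knockout muscle too, but neither wild-type samples nor samples across genotypes were taken as pairs. Alternatives were other background corrections, normalization, filters, probes per gene, samples in the fit, array weights, the replicate number as a block, each array left out, and, chosen after seeing the data, arrays apart in marker levels left out and the number as a random block.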

Additional observations from a re-analysis of the deposited data

Results flagged for a closer look

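In 52 tests of the lowest and highest sample of each group over the kept clock probes, 1 sample stood apart by Dixon's criterion, which chance gives in about 1 of 20 groups. It was replicate 5 of contracted knockout muscle for the brighter Clock probe, at an intensity of 431 where the other 6 samples of its group were at 628 or above. Its gap to the nearest sample was 0.607 of the group's range on the log2 scale, over the 95% critical value for 7 samples. The resting knockout sample of the same number, at 383, was the lowest of its group too.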

How the results depend on the processing

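The counts of called clock probes were recomputed under other processing. Between knockout and wild-type muscle after contraction, where the main count was 0, it was 1 with the limit at an intensity of 45 (Dbp, adjusted p = 0.0478), 1 with the replicate block across genotypes (Dbp, 0.0170), 1 with same-numbered samples as a random block (Dbp, 0.0298) and 6 with array weights (Clock, Arntl, Dbp, Per2 and both Nr1d1 probes), and 0 to 2 with each array left out. Of all 11723 probes, array weights called 3520 and the replicate block 1698 after contraction, against 921 in the main fit. At rest array weights called 1245 of all probes, against 402 in the main fit. The count of clock probes at rest was 1 with array weights (Nr1d1, limma adjusted p = 0.0418) and 0 to 1 with each array left out. It was 0 under every alternative run for both contraction comparisons and for the difference of the responses. No called value turned its sign. Of 2552 recomputed values of single clock probes, 135 uncalled ones turned sign, none larger than 0.26 in the main fit.

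Relations with Arntl that passed numbered 0 with a floor of 24 and no normexp, 0 over 14 means of same-numbered samples, 0 within each of contracted knockout, contracted wild-type, resting knockout and resting wild-type muscle, 0 without the 2 farthest samples, and 0 to 2 with each array left out. Of the same-number relations 3 passed by r with all pairs and 0 without the 2 farthest, where the 5 pairs left are too few for the adjusted test to say anything of stability.

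Over all probes, calls after contraction were 921, and 3520 with array weights, 1698 with the replicate block and 514 to 2202 with each array left out. At rest they were 402, and 246 with no filter, 1245 with array weights, 951 with the replicate block, 208 without arrays high in lymphocyte markers and 121 to 908 with each array left out. Contraction in knockout muscle gave 1, and 2 with the floor, 0 with only the compared groups or without the arrays low in slow-fibre or high in lymphocyte markers, 55 with array weights, 55 with the replicate block, 28 with the random block and 1 to 8 with each array left out. In wild-type muscle it gave 0, and 1 with the replicate or the random block. The difference of the responses gave 0, and 1 with array weights. The causes were not tested. The array's slide could not be used as a block, since the headers give none. Dim probes (Arntl, Per3 and 1 of Clock) limit what can be seen, and Cry1 was not measurable.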
